A study of Mus musculus with 40 samples.

Results

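Sites bound by both CTCF and PU.1, but carrying no peak of C/EBPb or of the remodeller SMARCA5, were taken from the consensus peak lists of mouse bone marrow-derived macrophages. A CTCF peak on chr1 to chr19 or chrX was counted if 1 bp or more of it lay in a PU.1 peak and none of it in a C/EBPb or SMARCA5 peak. This gave 1242 peaks, which were 4.91% of the 25280 CTCF peaks on these chromosomes and 24.7% of the 5034 that overlapped PU.1. Members were thus chosen by the measured peak positions in the 4 lists, so their overlap with PU.1 and their lack of SMARCA5 and C/EBPb are not findings.

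The cells came from Csf1r-Cre wild-type mice and from Smarca5lox/lox Csf1r-Cre mice, labelled SMARCA5 knockout, and both were grown into macrophages over 7 days with 4-hydroxytamoxifen every day. The 3 DNA-binding factors were each mapped by ChIP-seq, without stimulation, in 2 wild-type and 2 knockout libraries. SMARCA5 was profiled after micrococcal nuclease digestion in 8 libraries, 4 per genotype, covering both resting cells and a 2 h exposure to lipopolysaccharide at 10 ng/ml. Cre expression under Csf1r control covers macrophages and their relatives, and how complete the deletion was is not stated. Each protein has 1 consensus list, and which of its libraries entered that list is not stated. No value below can therefore be assigned to a genotype, a stimulus or a replicate. The libraries for H3K27ac were not analysed here.

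CTCF is a zinc-finger protein that binds a long DNA motif, halts loop extrusion by cohesin and marks insulators and domain borders. PU.1 is the ETS-family factor, encoded by Spi1, that opens macrophage enhancers and defines the lineage together with C/EBP factors. SMARCA5 is the ATPase of ISWI complexes, which slide and space nucleosomes, and ISWI activity is known to support CTCF binding and the regular nucleosome arrays beside it. A place where CTCF and PU.1 peaks coincide without a SMARCA5 peak thus pairs an architectural factor with a lineage factor where this remodeller was not called. A peak missing from a list does not show that the protein is absent, since the read depth behind the lists is unknown.

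At these sites the CTCF and PU.1 summits mostly lay close together, but the overlap required by the rule already limits this distance. The summit distance ran from 0 to 1056 bp with a median of 62 bp (95% interval 57 to 67), and the quartiles were 32 and 159 bp. Both summits fell at the same base in 3 members. The summits were within 25 bp in 243 members (19.6%), within 50 bp in 528 (42.5%) and within 100 bp in 826 (66.5%), while 253 (20.4%) had them over 200 bp apart. The background for these counts is all 5034 CTCF peaks that overlapped PU.1, among which 27.9% had summits within 50 bp and 31.4% had them over 200 bp apart. Members were therefore above that background for close summits and below it for distant ones.

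The most similar set with the remodeller is the 2446 CTCF peaks that overlapped PU.1 and SMARCA5 but not C/EBPb. Its median summit distance was 102 bp (96 to 108), against 62 bp at members. Summits within 50 bp were found at 42.5% of members (95% exact binomial interval 39.7 to 45.3) and at 25.2% of the sites with SMARCA5 (23.5 to 27). The difference was 17.3 percentage points, with a Newcombe interval of 14.0 to 20.5. In the 223 CTCF peaks with PU.1 and C/EBPb but no SMARCA5, the share was 30.9% (24.9 to 37.5) and the median distance 80 bp. These intervals cover only the counting of peaks. Peaks of 1 consensus list are not replicates, so no test was made of this or any other difference below.

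**Figure D1:**
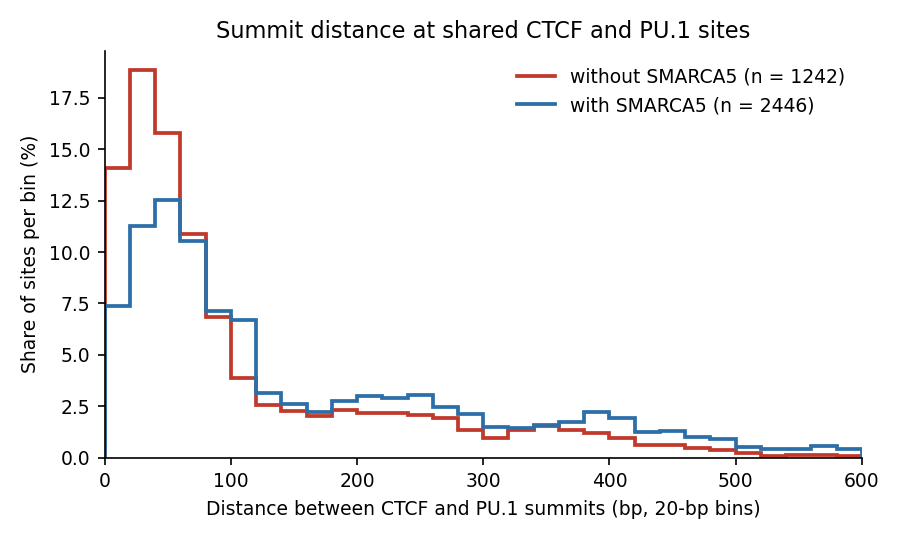
Share of sites (vertical axis, %) by distance between the CTCF and PU.1 summits in 20-bp bins (horizontal axis), for 1242 sites without SMARCA5 (red) and 2446 with it (blue), both without C/EBPb. The red line peaks at 20 to 39 bp with 18.8% of sites, the blue line at 40 to 59 bp with 12.5%, and 6 and 68 sites at 600 bp or more are not drawn.

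In 20-bp steps, the most frequent distance at members was 20 to 39 bp, with 234 sites, followed by 40 to 59 bp with 196 and 0 to 19 bp with 175. The counts then fell to 48 at 100 to 119 bp and lay between 24 and 32 in each step from 120 to 279 bp. With SMARCA5 the distribution was flatter, and 31.0% of sites had summits from 100 to 299 bp apart, against 22.8% of members. How a summit was placed in a consensus peak is not stated in these sources. The summit lay within 5 bp of the middle of the peak in 20.3% of CTCF peaks and 16.0% of PU.1 peaks. The precision of the summit distance is unknown.

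The overlap of the peaks themselves was large, as it was at CTCF and PU.1 sites in general. Members shared 5 to 664 bp with their PU.1 peak, with a median of 319 bp, and the shared part covered a median of 90.6% of the shorter peak. The overlap reached at least 50% of the shorter peak in 1090 members (87.8%), and in 340 (27.4%) the shorter peak lay wholly inside the other. Over all CTCF peaks that overlapped PU.1 these shares were 85.7% and 26.1%, close to those of members. Both summits lay inside the partner's peak in 985 members (79.3%), against 68.7% of sites with SMARCA5. In 144 members (11.6%) neither summit did so, so these are neighbours joined by their flanks. Such pairs made up 14.1% of all CTCF peaks that overlapped PU.1 and 15.6% of sites with SMARCA5, so members were below both. All 1242 members overlapped exactly 1 PU.1 peak, as did 99.6% of sites with SMARCA5. Of the members' PU.1 peaks, 1 also met another CTCF peak. The PU.1 peaks were narrower at members, with a median of 411.5 bp against 473 bp with SMARCA5, while the CTCF peaks had medians of 413 and 425 bp.

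By their medians, each taken separately, the CTCF peaks of members were fairly strong and their PU.1 peaks rather weak within their whole lists. The authors' -log10 q, a measure of how far a peak rises above its local background that grows with read depth, had a median of 64.0 for CTCF at members (95% interval 61.1 to 66.2, range 9.05 to 518). It was 42.8 at the 13389 CTCF peaks with no other protein and 77.5 at the sites with SMARCA5. Over all CTCF peaks that overlapped PU.1 it was 72.0, above that of members. For the PU.1 peak at members the median was 32.7 (31.2 to 34.6, range 5.77 to 957). This was close to the 34.5 of the 28262 PU.1 peaks with no other protein, and below the 45.6 of PU.1 peaks at sites with SMARCA5. Values of the CTCF and PU.1 lists come from separate calls. Except for a count given under the other observations, they are compared only by their place within each list.

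By that place, 763 members (61.4%) had a CTCF peak in the upper 50% of the CTCF list by -log10 q, where the background over all CTCF peaks is 50.0% by construction. Only 397 members (32.0%) had a PU.1 peak in the upper 50% of the PU.1 list, where the background is likewise 50.0%. With SMARCA5 the shares were 68.9% and 47.7%. Over all 5034 CTCF peaks that overlapped PU.1 they were 65.5% and 47.4%, so members were below this background for both factors. The pairing of an upper CTCF with a lower PU.1 peak was the most frequent, at 524 members (42.2%), as it was with SMARCA5 (37.9%) and over all CTCF peaks that overlapped PU.1 (35.6%). Both peaks were in their upper 50% at 239 members (19.2%), against 31.0% with SMARCA5. Both were in their lower 50% at 321 (25.8%), against 14.4%. A lower CTCF with an upper PU.1 peak was found at 158 members (12.7%), against 16.7%. Over all CTCF peaks that overlapped PU.1 the shares of both upper, both lower, and lower CTCF with upper PU.1 were 29.9%, 16.9% and 17.6%.

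The ends of the lists were filled unevenly. Decile 10 of the CTCF list, its strongest part, held 15.6% of members and 26.4% of sites with SMARCA5, and decile 1 held 6.52% and 7.73%. Decile 10 of the PU.1 list held 2.66% of members, or 33 sites, against 8.38% with SMARCA5. Decile 1 of the PU.1 list held 231 members (18.6%) against 14.9% with SMARCA5. In both sets, decile 1 of PU.1 and decile 10 of CTCF held more sites than any other decile of their list.

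**Figure D2:**
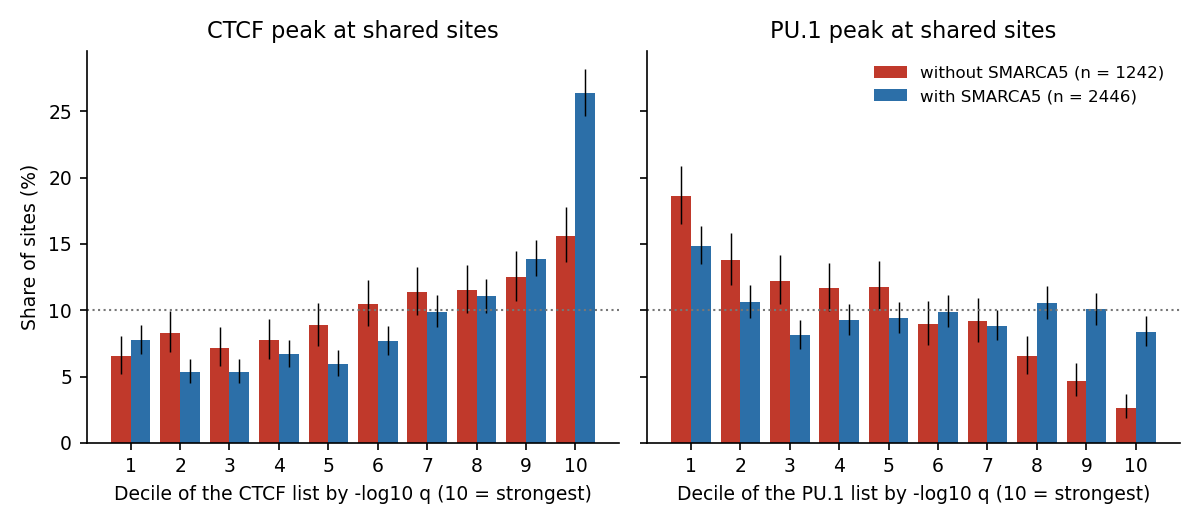
Share of sites (vertical axis, %) whose CTCF peak (left) or PU.1 peak (right) falls in each decile of its own list by -log10 q (horizontal axis, 10 strongest), for sites without (red) and with (blue) SMARCA5, with 95% exact binomial intervals as bars and 10% as the dotted line. Members go from 6.52% in CTCF decile 1 to 15.6% in decile 10, and from 18.6% in PU.1 decile 1 to 2.66% in decile 10.

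By fold enrichment, the authors' ratio over local background, the gap between the factors was smaller. The median for CTCF was 12.8 at members, 11 at CTCF peaks alone and 13.3 with SMARCA5. For PU.1 the medians were 10.6, 10.9 at PU.1 peaks alone and 10.6 with SMARCA5. The members' median lay at percentile 61.2 of the CTCF list and at percentile 44.7 of the PU.1 list by fold enrichment, against 60.8 and 34.3 by -log10 q. The PU.1 peaks of sites with and without SMARCA5 therefore differed by -log10 q but hardly by fold enrichment.

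Within the members the strengths of CTCF and PU.1 hardly varied together. Over 1242 sites, Spearman's rho between the -log10 q of CTCF and of PU.1 was -0.04, and Pearson's r was 0.01. For fold enrichment they were -0.02 and -0.01. These are correlations across sites of consensus lists, and sites are not independent samples. Whether the CTCF and PU.1 libraries came from the same animals is not stated. Within groups of summit distance, rho ran from -0.14 over 200 bp to 0.08 at 26 to 50 bp. Members with summits at 26 to 50 bp had the highest medians for both factors, 70.2 for CTCF and 35.4 for PU.1, and those over 200 bp had 58.8 and 30.8.

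**Figure D3:**
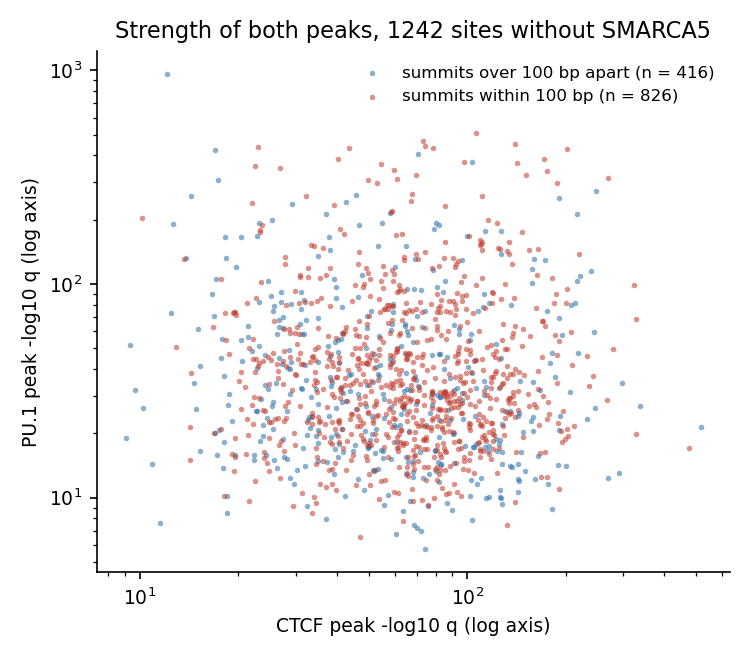
The -log10 q of the CTCF peak (horizontal, log axis) and of its PU.1 peak (vertical, log axis) at each of 1242 members, coloured by summits within 100 bp (red, 826) or farther apart (blue, 416). The points form 1 cloud with no slope, and red and blue points mix over its whole extent.

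The closer summits of members were seen at every strength. In each of the 10 deciles of CTCF -log10 q, the share of sites with summits within 50 bp was higher at members than at sites with SMARCA5, by 8.72 to 24.7 points. It was also higher in each of the 10 deciles of PU.1 -log10 q, by 11.5 to 35.9 points. At PU.1 peaks of decile 10 the share was 51.5% of the 33 members (33.5 to 69.2) and 15.6% of 205 sites with SMARCA5 (10.9 to 21.3). Width went with the distance in both sets. From the narrowest to the widest of 5 groups of PU.1 peaks the share went from 49.0% to 20.0% at members and from 38.4% to 13.9% with SMARCA5. Within each of these groups members were higher, by 6.15 to 16.4 points, and within 5 groups by CTCF width by 8.66 to 26.7 points. By chromosome the share was higher at members on 19 of 20, and on chromosome 19 it was 26.2% in both sets. Read depth and how peak widths were merged were not tested as sources of the difference.

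**Figure D4:**
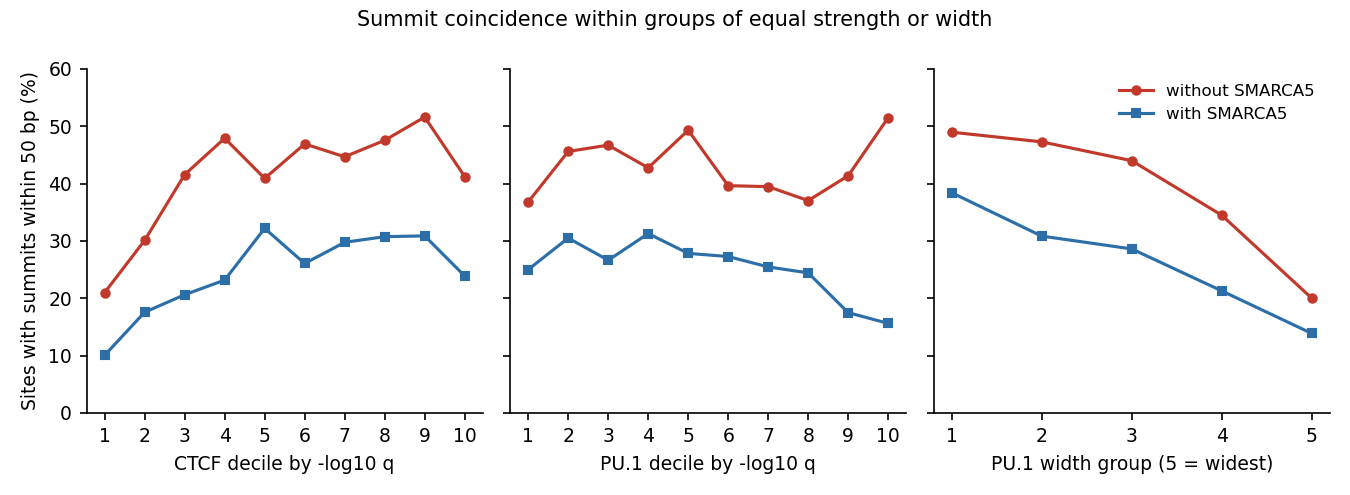
Share of sites with CTCF and PU.1 summits within 50 bp (vertical axis, %) by decile of CTCF -log10 q (left), decile of PU.1 -log10 q (middle) and PU.1 width group (right), for sites without (red) and with (blue) SMARCA5. The red points lie above the blue ones in all 10, 10 and 5 groups, and both lines fall with PU.1 width, from 49.0% to 20.0% and from 38.4% to 13.9%.

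Read the other way, the share of CTCF and PU.1 sites that lacked SMARCA5 went with how close the summits were and with PU.1 width. Of 3688 CTCF peaks with PU.1 and without C/EBPb, those with summits within 25 bp were members in 48.9% of cases (44.4 to 53.4). The share was 44.0% at 26 to 50 bp, 33.6% at 51 to 100 bp, 28.0% over 100 and up to 200 bp, and 23.6% (21.1 to 26.2) beyond. By PU.1 strength it lay between 38.8% and 43.3% in deciles 1 to 5, with the highest share in decile 3, and was lower in deciles 6 to 10, down to 13.9% in decile 10. Along CTCF strength it was highest in decile 2, at 44.0%, and lowest in decile 10, at 23.1%. By PU.1 width it fell from 46.0% in the narrowest of 5 groups to 14.9% in the widest, a wider span than by summit distance. Width and summit distance went together in both sets, as given above.

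The 5 members with the highest CTCF fold enrichment are given as examples, chosen by that value. The first, chr4:152017855-152018299 on mm39, had a CTCF fold enrichment of 29.3 and a -log10 q of 475. Its PU.1 peak, chr4:152017870-152018279, had a fold enrichment of 8.06 and a -log10 q of 17, with the summits 48 bp apart. This site is at percentile 99.9 of the CTCF list and 9.28 of the PU.1 list. At chr11:120666841-120667339 the fold enrichments were 25.3 for CTCF and 10.5 for PU.1, with summits 110 bp apart. At chr8:85464042-85464588 they were 25.2 and 15.0 at 78 bp. At chr4:124978686-124979227 they were 24.8 and 6.55, and the summits lay 261 bp apart. The fifth, chr5:24955624-24956115, had 24.5 and 6.61 at 70 bp. The nearest SMARCA5 peak was 19.6 to 61.4 kb from these 5 sites. Their PU.1 peaks ranked from percentile 3.20 to 61.7 by -log10 q.

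The 5 members with the highest PU.1 fold enrichment were chosen by that value in the same way. At chr17:87946746-87947198 the PU.1 fold enrichment was 31.8 and its -log10 q 437, while CTCF had 8.02 and 22.9, at percentile 10.9 of its list, and the summits were 35 bp apart. At chr13:74055835-74056257 PU.1 had 31.6 and CTCF 13.2, with summits 47 bp apart. At chr10:83401592-83401949 PU.1 had 31.2 and CTCF 6.65, with the summits 249 bp apart. The sites chr3:104448677-104449005 and chr8:72241770-72242228 had PU.1 values of 30.4 at both, CTCF values of 13.8 and 14.8, and summits 41 and 113 bp apart. CTCF at these 5 sites ranked from percentile 3.84 to 66.5 by -log10 q. Their nearest SMARCA5 peaks were 12.6 to 35.9 kb away.

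Some members ranked high in both lists. The 5 with the highest lower-of-both percentile were led by chr9:107479164-107479624, with a CTCF -log10 q of 202 and a PU.1 -log10 q of 429 and summits 87 bp apart. At chr6:115877932-115878348 the values were 172 and 386 at 41 bp. At chr1:180591489-180591877 they were 142 and 370, with summits only 12 bp apart. At chr5:134611246-134611659 they were 175 and 339 at 70 bp, and at chr11:51708609-51709020 they were 140 and 451 at 48 bp. The nearest SMARCA5 peaks were 8.90, 7.03, 2.50, 7.39 and 1.75 kb from these sites in the same order. These 5 distances were under the members' median, which is a description of 5 picked sites only, and a C/EBPb peak lay within 0.79 to 9.34 kb of each.

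Members lay a median of 14.1 kb from the nearest SMARCA5 peak (95% interval 12.5 to 15.3), measured between peak edges. The range was 82 bp to 1436 kb and the quartiles were 6.64 and 30.4 kb. With only the upper 50% of the SMARCA5 list by -log10 q, the same rule gave 2243 members and a median of 23662 bp. A SMARCA5 peak was within 10 kb of 492 members (39.6%), against a background of 33.6% over the 15196 CTCF peaks that overlapped none. CTCF peaks alone had a median of 19.2 kb and 32.7% within 10 kb, while PU.1 peaks alone had 13.9 kb and 40.6%. At 100 kb the shares were 94.3% of members, 85.5% of CTCF alone and 91.7% of PU.1 alone. From 10 kb upward the members' shares were thus closer to those of lone PU.1 peaks than of lone CTCF peaks. At shorter range this did not hold. A SMARCA5 peak lay within 5 kb of 212 members (17.1%), of 17.9% of CTCF peaks alone and of 22% of PU.1 peaks alone. The shares within 1 kb were 0.725% of members, or 9 sites, 1.79% of CTCF peaks alone and 2.72% of PU.1 peaks alone.

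**Figure D5:**
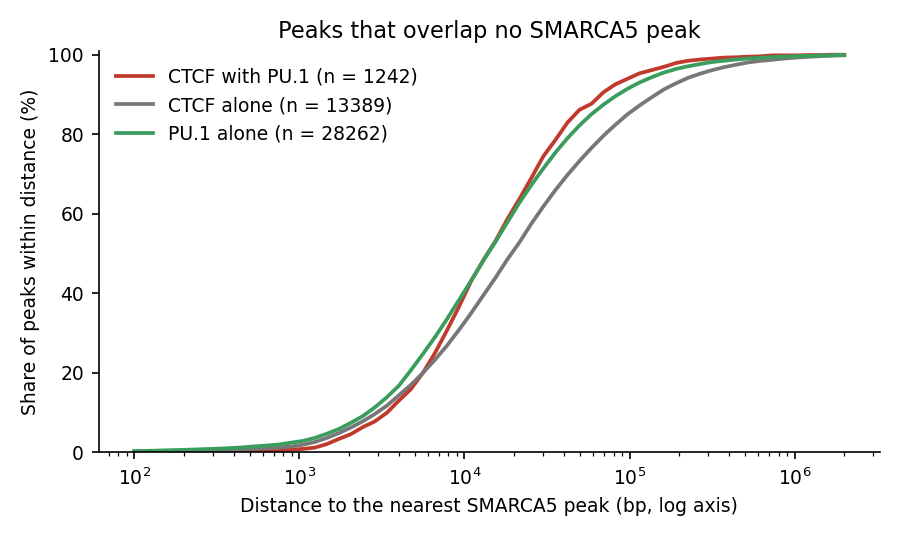
Share of peaks (vertical axis, %) with a SMARCA5 peak within a given distance (horizontal, log axis), for members (red, 1242), CTCF peaks alone (grey, 13389) and PU.1 peaks alone (green, 28262). From 10 kb onward the red curve runs close to the green one, with 39.6% and 40.6% at 10 kb, and above the grey one, at 32.7%.

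Distance to SMARCA5 was compared across summit distances. Its median lay between 11915 bp, with summits over 100 and up to 200 bp apart, and 15363 bp, with summits within 25 bp, and it was 12867 bp with summits over 200 bp apart. Across members, Spearman's rho of the distance was -0.11 with CTCF -log10 q and -0.04 with PU.1 -log10 q. Here too, sites are not independent samples. The SMARCA5 peaks nearest to members resembled the SMARCA5 list, with a median width of 2441.5 bp and a fold enrichment of 2.09, against 2553 bp and 2.08 over all 37054 on these chromosomes. Those nearest to members held PU.1 in 74.5% of cases, C/EBPb in 41.0% and CTCF in 34.1%. Over all SMARCA5 peaks these shares were 72.6%, 44.4% and 25.5%. Those nearest to CTCF peaks alone held CTCF in 33.9%, so the higher CTCF share is found around CTCF peaks with or without PU.1.

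The extremes of this distance were as follows. The nearest member to SMARCA5, chr2:148342471-148342805, was 82 bp from a SMARCA5 peak at chr2:148339179-148342388, and its PU.1 peak reached into that peak. The same held for chr1:64776540-64776966, at 197 bp. Their summits lay 328 and 359 bp apart, well above the members' median. The third, chr2:60040006-60040331, lay 302 bp away and its PU.1 peak did not overlap SMARCA5. In all, 3 members had a PU.1 peak that overlapped SMARCA5, of which the third, chr8:106363127-106363666, was named after its values were seen, and 10 had one that overlapped C/EBPb. The farthest were chrX:144455759-144456156 at 1436 kb, chrX:144090281-144090583 at 1071 kb and chr3:125642822-125643136 at 726 kb. These 3 had summits 60, 63 and 70 bp apart and CTCF -log10 q values of 44.2, 22.6 and 26.5. In all, 71 members lay over 100 kb from SMARCA5.

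Other PU.1 and C/EBPb peaks were less frequent within 10 kb of members than within 10 kb of the sites with SMARCA5, while other CTCF peaks were about as frequent. Another PU.1 peak lay within 10 kb of 703 members (56.6%), against 71.9% of sites with SMARCA5 and 51.4% of CTCF peaks alone. The background over all CTCF peaks is 62.5%, so members were below it. A C/EBPb peak lay within 10 kb of 387 members (31.2%), where the background over CTCF peaks without C/EBPb is 36.8%. It was 51.3% for sites with SMARCA5 and 26.4% for CTCF alone. The median distance to C/EBPb was 17.4 kb at members and 9.39 kb with SMARCA5. Another CTCF peak lay within 10 kb of 467 members (37.6%), near the background of 36.9% over all CTCF peaks and the 40.1% of sites with SMARCA5. The median distance to it was 14.2 kb in both sets. The nearest other CTCF peak overlapped SMARCA5 for 36.5% of members, 50.9% of sites with SMARCA5 and 31.7% of CTCF peaks alone.

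Members were found on every chromosome used. They numbered from 21 on chromosome X to 108 on chromosome 4. As a share of the CTCF peaks of a chromosome they ran from 3.63% on X to 6.69% on 4, followed by 6.23% on 8. Per 10 Mb spanned by CTCF peaks there were 8.76 members on chromosome 11 and 1.29 on X. When members within 50 kb of each other were joined, 1068 stood alone, 73 pairs formed and 9 groups held 3 or 4. This grouping was not computed for other sites, so it does not show whether members cluster more or less than those. The nearest other CTCF peak was a member for 6.04% of members, 4.33% of sites with SMARCA5 and 5.26% of CTCF peaks alone. The tightest groups were 3 members in 32.8 kb at chr9:48497609-48530396, 3 in 36.1 kb at chr7:49400927-49437050 and 4 in 61.9 kb at chr17:27370349-27432202. Their members lay 3.80 to 36.1, 5.05 to 19.5 and 16.7 to 47.0 kb from SMARCA5.

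Few members hung on the 1-bp limit of the rule. The overlap with PU.1 was under 50 bp in 28 members, and 31 CTCF peaks alone lay within 50 bp of a PU.1 peak without touching it by a base. The smallest overlaps were 5 bp at chr4:109277583-109278045 and 12 bp at chr13:45714062-45714372 and chr17:31544790-31545167, with summits 365 to 428 bp apart. Just outside, chr6:87529017-87529434 abutted a PU.1 peak, and chr11:53533593-53533912 and chr10:93322513-93322826 were 1 and 2 bp from one. On the SMARCA5 side, the left-out peaks with the smallest overlap were chr1:13443024-13443440, chr9:110481475-110481799 and chr4:45530347-45530969, with 48, 79 and 93 bp inside a SMARCA5 peak.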

How the data were processed

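The files are 4 consensus peak lists on mm39, 1 each for CTCF (25307 peaks), PU.1 (67796), C/EBPb (30960) and SMARCA5 (37071, broad peaks). The submitters' processing notes name MACS2 2.2.7.1, deepTools 3.5.1, STAR 2.7.9a and Picard 2.27.4. What each did, and how calls of several libraries became 1 list, is not given there. The authors deposited for each peak a score, a fold enrichment (a ratio over local background) and a -log10 q; a further column, read as -log10 p, was not used. These are the authors' values and were used to describe and rank peaks within a list. The exception is a count of sites where the -log10 q of PU.1 was above that of CTCF. The deposited summit offset was added to the peak start. Read depth is unknown, and 0 value columns belong to a library.

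Overlaps, edge distances and summit distances were computed with Python 3.11.15, NumPy 2.4.6, pandas 2.3.3 and SciPy 1.17.1, tested on simulated peaks, and drawn with matplotlib 3.10.9. Only chr1 to chr19 and chrX were used. Where several PU.1 peaks met a CTCF peak, the nearest summit was taken. Percentiles and deciles run over each list on these chromosomes. Medians carry 95% order-statistic intervals, shares exact binomial ones and the difference of shares Newcombe's.

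Named regions are the 5 members highest in CTCF fold enrichment, in PU.1 fold enrichment and in the lower of both percentiles by -log10 q. The rule adds the 3 nearest to and farthest from SMARCA5, the 3 tightest groups, and 3 on each side of the overlap limits. Chromosome 18 was left out of the names. Members and rules were chosen with earlier results of these data known. No mm39 sequence or annotation was used, so genes, motifs and promoters were not analysed here.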

Additional observations from a re-analysis of the deposited data

How the results depend on the processing

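Of 60 values under other settings, 50 stayed close to the reported one: counts within 1.5 times, medians and shares within the reported interval, and fold enrichment in place of -log10 q judged by its percentile in the list. The share within 50 bp at members minus that at sites with SMARCA5 stayed within its interval in all 9 alternatives, from 16.6 to 18.9 points. Choosing the PU.1 peak with the highest -log10 q, or keeping only sites with exactly 1, could change no member value. All 1242 members overlapped exactly 1 PU.1 peak, as did 99.6% of sites with SMARCA5. Values under these settings, counted among the 50, were thus fixed in advance or nearly so. Using only the upper 50% of the SMARCA5 list by -log10 q moved most values, since fewer peaks were excluded: 2243 members, a median summit distance of 69 bp, 37.8% within 50 bp, medians of -log10 q of 67.7 for CTCF and 35.5 for PU.1, and 23.7 kb (23662 bp) to SMARCA5. An overlap of at least 50% of the shorter peak removed offset pairs and gave a median summit distance of 52 bp and 48.4% within 50 bp. Keeping only PU.1 peaks with a -log10 q of at least 20 raised the PU.1 median to 43.6, as its construction implies. Fold enrichment in place of -log10 q gave a PU.1 median of 10.6, which lies higher in its list than the median -log10 q does; the cause was not tested. No paired analysis was possible because no value in the files belongs to a single library, and for the same reason no replicate could be left out. Depth per library is unknown, so a missing SMARCA5, C/EBPb or PU.1 peak cannot be taken as absence of the protein.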

Other observations

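The decimals of the authors' scores differed between the factors at members. The CTCF score had decimals of 0.25 or 0.75 for 42.8% of members (95% exact binomial interval 40.1 to 45.6), against 41.5% of sites with SMARCA5, 33.8% of CTCF peaks alone and 37.3% of all CTCF peaks. The score of the PU.1 peak did so for 30.8% of members (28.3 to 33.5), against 979 of 2446 sites with SMARCA5 (38.1% to 42%), 29.5% of PU.1 peaks alone and 36.6% of all PU.1 peaks. Members thus stood with the SMARCA5 sites in this property of the CTCF score and with lone PU.1 peaks in that of the PU.1 score. How a score was averaged is not given in the sources used here, and the link of these decimals to the number of calls was not tested.

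The PU.1 peak had the higher -log10 q of the pair at 380 members (30.6%), against 39.7% of all 5034 CTCF peaks that overlapped PU.1. The share was 38.0% at sites with SMARCA5 and 49.8% at the 223 CTCF peaks with PU.1 and C/EBPb but no SMARCA5. The lists were called separately, so the value describes the pair of lists and not relative occupancy. The median distance to SMARCA5 was below that to C/EBPb at members (14.1 and 17.4 kb) and at CTCF peaks alone (19.2 and 24.4 kb). The order of these medians is therefore not particular to members. The SMARCA5 list is the longer and its peaks the wider.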
